A study of Mus musculus with 8 samples.

Results

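Basal cells from the back skin epidermis of TPA-treated mice were compared with those of untreated mice. The comparison used 5 of the 8 arrays in the series, 2 titled as TPA and 3 as control, chosen by their titles alone, and covered 17097 genes. All mice were CD1, an outbred laboratory strain, and no altered allele is named for any group. Control mice had no treatment, TPA mice received the phorbol ester tetradecanoylphorbol acetate, and the remaining 3 mice had their skin expanded and were taken at day 4. The expanded arrays enter only the estimate of spread and the values set beside those of TPA. The dose of TPA, the time after it and the age of the mice are not given in the sources used here. From each mouse 300 living cells were sorted as ITGA6-positive and CD34-negative, a gate that holds basal cells of the epidermis and of the upper follicle and leaves out the follicle bulge. Each array therefore stands for 1 mouse and for cDNA amplified from few cells over 25 cycles. Nothing else ties mice to cages, days or batches in the labels, so the p-values measure the spread between these arrays.

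TPA takes the place of the lipid messenger diacylglycerol and activates protein kinase C and a few other proteins with the same binding domain. In keratinocytes the signal runs through the MAPK cascade to AP-1, the dimers of FOS and JUN proteins, which bind a short DNA sequence named the TPA response element. In mouse epidermis TPA is known as a tumour promoter that induces ornithine decarboxylase, stress keratins, proteases and cytokines and drives basal cells to divide.

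Several of these known TPA-induced genes lay below control in the TPA-labelled arrays. Odc1, ornithine decarboxylase, the first enzyme of polyamine synthesis, had RMA log2 signals of 11.33, 11.36 and 11.33 in the control-labelled arrays and 8.93 and 9.05 in the TPA-labelled arrays. The arrays of each group lay close together and far from the other group, and the difference, TPA minus control, was -2.35 ± 0.10 (SE, limma, adjusted p = 2.4e-06), which is 5.09-fold lower. Krt16, a stress keratin of thickened epidermis, had signals of 13.03, 13.05 and 13.03 in control and 12.20 and 12.10 in TPA. Its difference was -0.89 ± 0.07 (adjusted p = 6.57e-05), and that of Krt6a, its partner keratin, was -0.69 ± 0.09 (adjusted p = 0.000672). Other genes first found as TPA-induced sequences stood the other way: Nr4a1, Btg2 and Egr1 were higher in the TPA-labelled arrays. Directions below follow the labels. An exchange of the TPA and control labels would turn every sign in this comparison, and whether it took place was not tested.

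Below, a level is an RMA log2 signal, a difference is TPA minus control on that log2 scale ± SE, and adjusted p-values come from limma over all genes. Every difference rests on n = 2 TPA and n = 3 control arrays. A gene called higher or lower passed an adjusted p of 0.05. A signal counts as under the background limit when it lies under the 95th percentile of the array's 79 receptor genes for smell, pheromones and trace amines, which was 6.37 to 6.55. Where the dimmer group lay under that limit on each of its arrays, the fold is given as a lower bound.

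Of the 17097 genes, 3559 passed the threshold (20.8%), 1744 of them higher (10.2%) and 1815 lower (10.6%) in the TPA-labelled arrays. A difference of 2-fold or more was seen for 809 of the called genes (4.73% of all genes), 371 higher (2.17%) and 438 lower (2.56%). Large differences lay more often on the lower side: at 8-fold or more, 13 genes were higher and 46 lower. The median difference over all genes was -0.03. No called gene had overlapping groups, which a call from 2 and 3 arrays almost requires, so this adds no support to the calls. In 475 called genes the dimmer group lay under the background limit, and in 200 both did. The pair of TPA arrays correlated at r = 0.990 across genes, control arrays at 0.993 to 0.995, and TPA with control arrays at 0.961 to 0.965, where genes are not independent replicates.

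**Figure D1:**
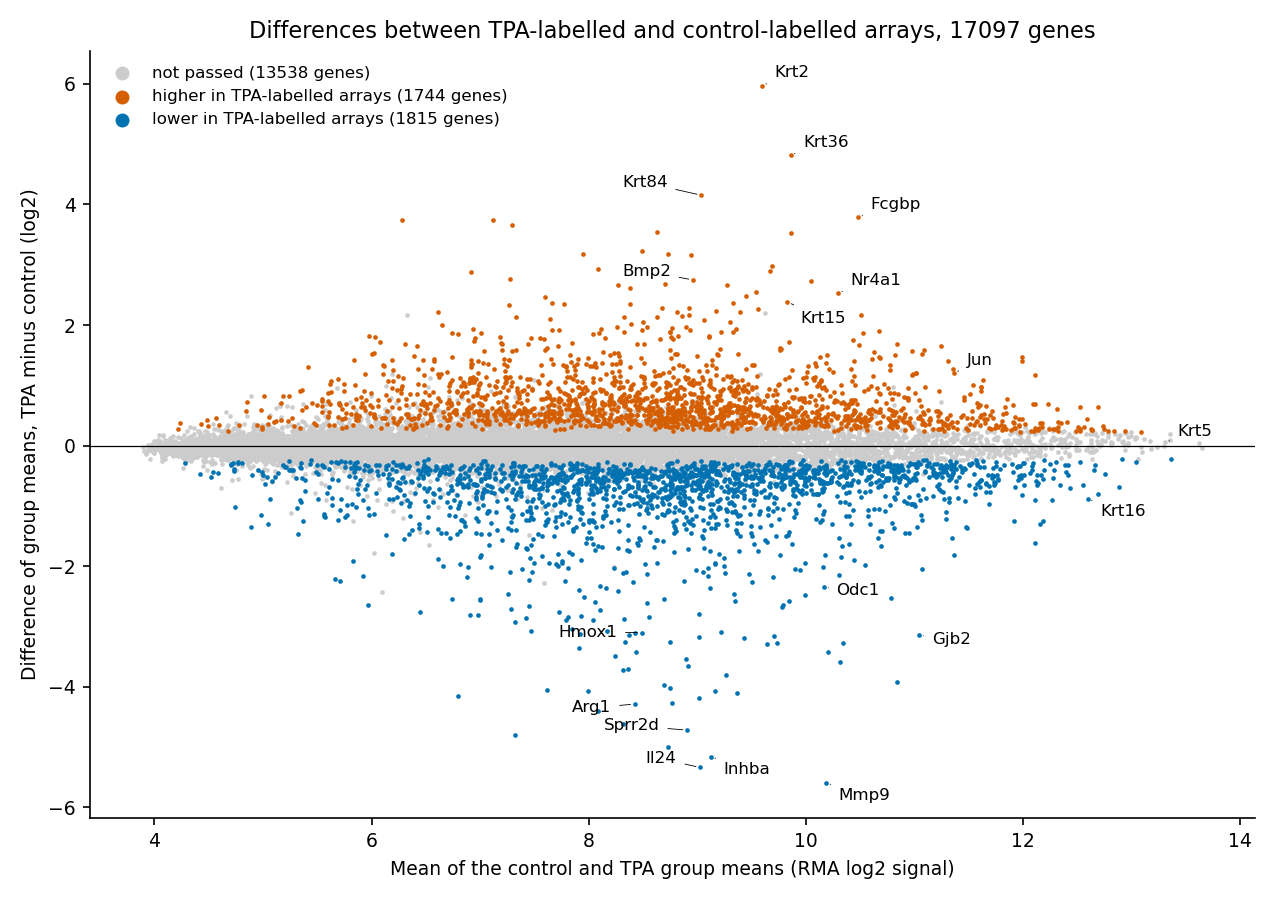
Each point is 1 of 17097 genes, with the mean of the control and TPA group means on the horizontal axis (RMA log2 signal) and the difference TPA minus control on the vertical axis (log2). Orange and blue points are the 1744 higher and 1815 lower genes past the adjusted p of 0.05, grey points the rest, and the lower side reaches past -4 for more genes than the upper side reaches past 4.

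Most markers of basal keratinocytes did not differ past the threshold, but Itga6 and Itgb4 were lower. Krt5, the basal keratin, had signals of 13.23 to 13.32 in control and 13.33 and 13.34 in TPA, and its difference was 0.05 ± 0.07 (adjusted p = 0.677). These signals lay near the top of the range, where the highest gene of an array read 13.63 to 13.68, so a rise could hardly show. Krt14 differed by -0.01 ± 0.07, Trp63, the p63 transcription factor of basal cells, by 0.11 ± 0.07, and Col17a1, a hemidesmosome collagen, by 0.11 ± 0.07, and none of these 3 passed. Itga6, the integrin of the sort gate, had signals of 12.31, 12.25 and 12.25 in control and 11.52 and 11.64 in TPA. It was lower by 1.61-fold (difference -0.69 ± 0.08, adjusted p = 0.000323), so the gene behind the gate itself differed between groups. Itgb4, another basal marker, was also lower, with a difference of -0.32 without the first TPA array and -0.33 without the second. That call was lost without either TPA array or with the replicate number as a block. Cd34 and Lgr5, markers of the bulge, lay under the background limit on all arrays. Of 19 keratins and transcription factors of basal identity, 5 were higher and 2 lower, with a median of 0.05, and 3 were higher without the first control array or either TPA array, and 1 lower without the first TPA array. Krt15, a keratin of basal and bulge cells, rose from 8.52, 8.72 and 8.68 to 10.96 and 11.08, a 5.21-fold difference (2.38 ± 0.10, adjusted p = 2.54e-06). In sorted cells pooled for an array, fewer cells of a type and less RNA per cell cannot be told apart.

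Immediate early genes, which answer a signal within minutes to hours without new protein, were mostly higher in the TPA-labelled arrays. Of 21 measured beside the AP-1 subunits, 13 were higher and 2 lower, with a median of 0.52. Nr4a1, an orphan nuclear receptor induced by TPA, had signals of 9.13, 8.79 and 9.17 in control and 11.58 and 11.54 in TPA. The groups were far apart, 5.79-fold (2.53 ± 0.21, adjusted p = 8.33e-05). Btg2, an antiproliferative gene also known as a TPA-induced sequence, had signals of 10.04, 10.12 and 10.05 in control and 11.65 and 11.50 in TPA (1.51 ± 0.15, adjusted p = 0.000209). Ccn1, a matricellular protein, was 3.14-fold higher (1.65 ± 0.16), Nr4a3 2.51-fold (1.33 ± 0.14) and Myc, the growth transcription factor, 1.94-fold (0.95 ± 0.08). Egr1 read 12.20, 12.13 and 12.29 in control and 12.89 and 12.79 in TPA, a smaller step near the top of the range (0.63 ± 0.10, adjusted p = 0.00218). The lower pair was Rhob, a small GTPase (-1.09 ± 0.10), and Klf10 (-0.37 ± 0.09), whose call was lost without the second or the third control array or the first TPA array (adjusted p up to 0.136).

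All called subunits of AP-1 were higher: 7 of 13 measured, with none lower and a median of 0.49. Jun had signals of 10.93, 10.70 and 10.67 in control and 11.98 and 11.95 in TPA, a 2.30-fold difference (1.20 ± 0.12, adjusted p = 0.000171). Atf3, a stress-induced partner of JUN, differed by 1.17 ± 0.12, Jund by 0.77 ± 0.10, Mafk by 0.76 ± 0.10 and Fosb by 0.63 ± 0.10, and these 4 also passed. Fos did not pass, at 12.72, 12.63 and 12.70 in control and 12.85 and 12.89 in TPA (0.19 ± 0.07, adjusted p = 0.118). Fosl1, which encodes FRA-1, was higher by 0.50 ± 0.14 (adjusted p = 0.0326), a call lost when any 1 control, any 1 TPA or the first expanded array was left out (adjusted p up to 0.136). Junb, at 0.49 ± 0.10, lost its call without the second TPA array (adjusted p = 0.0612).

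Of 23 measured genes for protein kinase C and D, RASGRP, chimaerin and diacylglycerol kinase proteins and the MARCKS substrates, 2 were higher and 3 lower, a share close to the 20.8% over all genes. The largest difference was in a substrate. Marcksl1, a membrane and actin-binding target of protein kinase C, had signals of 11.92, 12.03 and 11.79 in control and 9.03 and 7.95 in TPA. The TPA arrays differed from each other by over 1 log2 unit and both lay below control (-3.42 ± 0.28, adjusted p = 6.57e-05). Its relative Marcks was 1.79-fold lower (-0.84 ± 0.09). Dgka, a kinase that removes diacylglycerol, was higher by 0.36 ± 0.07. Prkca, protein kinase C alpha, was lower by 0.49 on the log2 scale, a call lost in 7 of 8 fits without 1 array (adjusted p up to 0.238). Prkci, an isoform that phorbol esters do not bind, was higher by 0.31 ± 0.08, a call lost without either TPA array (adjusted p up to 0.0841).

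Feedback genes of the MAPK pathway went both ways, with 5 of 16 higher and 4 lower. Errfi1, an inhibitor of the EGF receptor, was 2.40-fold higher (1.26 ± 0.24, adjusted p = 0.00623), and Spry1, an inhibitor of RAS signalling, rose from 6.47, 6.53 and 6.52 to 8.06 and 8.10. Dusp1, a MAPK phosphatase, was higher by 0.61 ± 0.09. Phlda1, a pleckstrin-homology protein, was lower, from 11.03, 10.92 and 10.99 to 9.11 and 8.71 (-2.07 ± 0.18, adjusted p = 0.000103). The count of lower genes was 2 without the second TPA array or the second control array.

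Ligands of the EGF receptor family were lower. Of 13 receptors, ligands and regulators, 5 were lower and 1 higher, and the 5 lower ones were all ligands. The higher count was 0 without the first or the third control array or the first TPA array. Tgfa, transforming growth factor alpha, had signals of 10.69, 10.59 and 10.53 in control and 7.19 and 7.67 in TPA. The groups stood 9.04-fold apart (-3.18 ± 0.20, adjusted p = 1.7e-05). Ereg, epiregulin, read 8.15, 7.98 and 7.91 in control and 5.37 and 5.55 in TPA, under the background limit there, so it was at least 2.90-fold lower. Nrg1, neuregulin, was 3.11-fold lower (-1.63 ± 0.20) and Hbegf 1.71-fold lower (-0.78 ± 0.10). Epgn, epigen, was lower by 1.08 on the log2 scale, with an adjusted p of 0.0509 without the second TPA array.

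**Figure D2:**
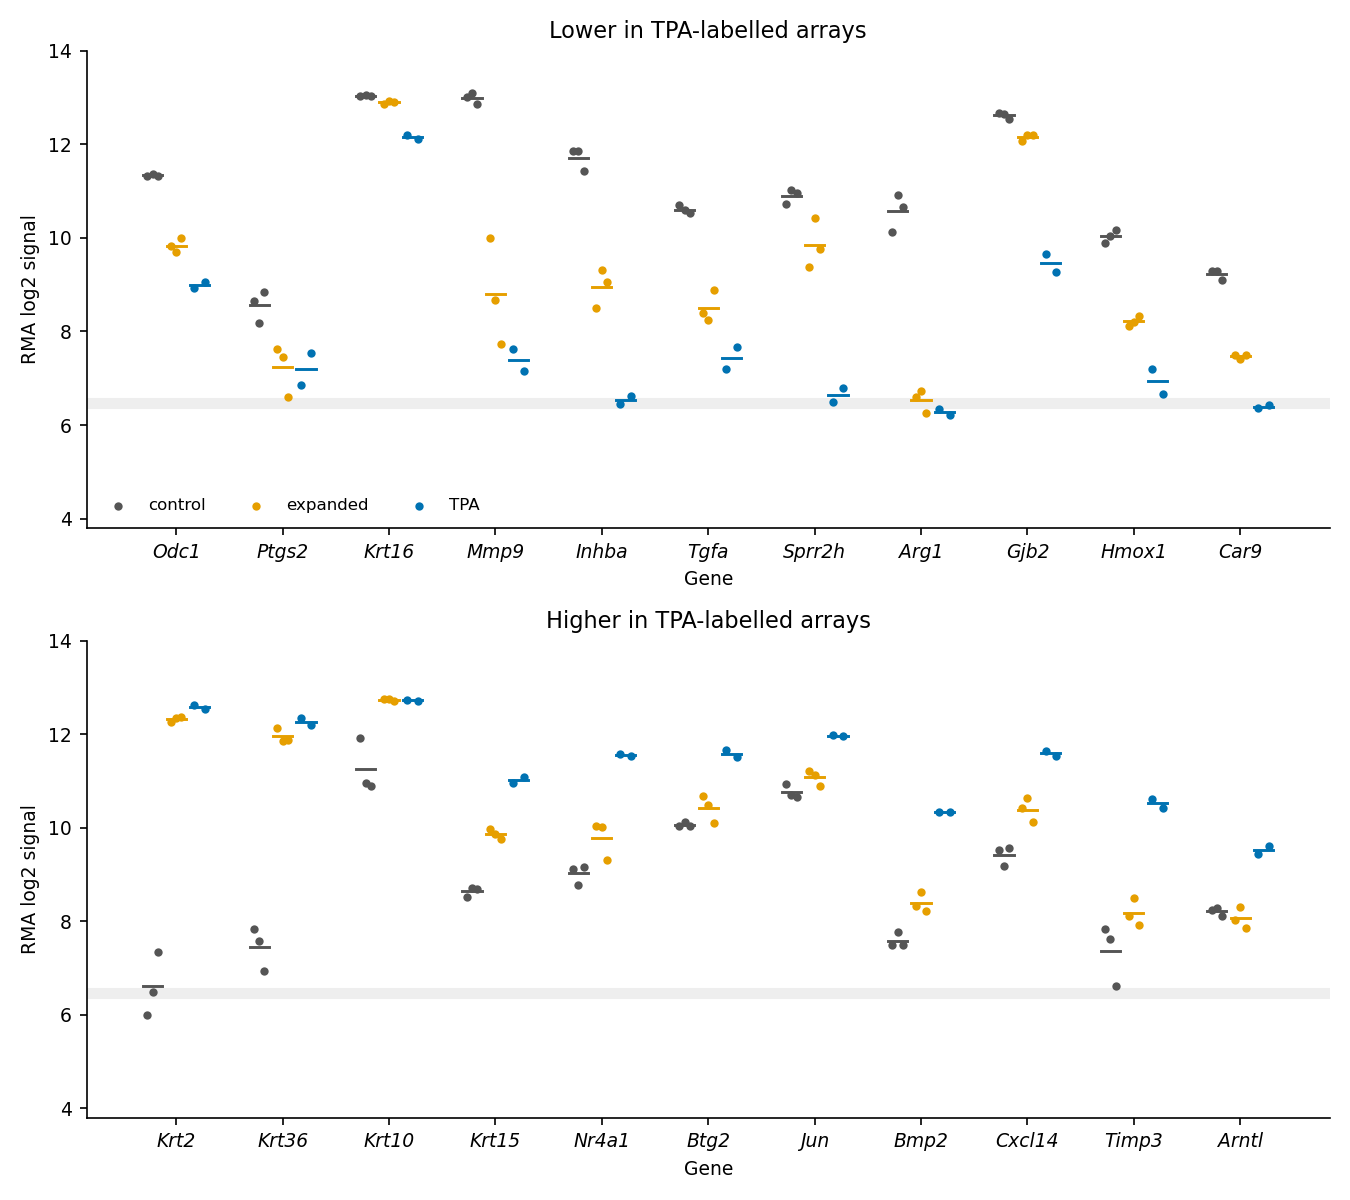
Each point is the RMA log2 signal of 1 array, with control arrays in dark grey (n = 3), expanded in orange (n = 3) and TPA in blue (n = 2), bars at the group means, and the pale band at the background limit of 6.37 to 6.55. In the upper panel the TPA arrays lie below all control arrays for each of the genes shown, and in the lower panel they lie over all of them, while the expanded arrays mostly lie between.

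Cytokines and chemokines split by gene. Of 28 measured, 5 were higher and 7 lower, with a median of -0.16. Il24, an interleukin of the IL-20 family, had signals of 11.88, 11.64 and 11.56 in control and 6.23 and 6.48 in TPA. The TPA arrays were under the background limit, so the fall was at least 37.2-fold (adjusted p = 1.11e-05). Il33, an alarmin of the IL-1 family, fell from 10.09, 10.29 and 9.91 to 8.28 and 8.31, and Il1f9, another member of that family, was 3.71-fold lower (-1.89 ± 0.20). The higher ones were chemokines. Ccl27a, a keratinocyte chemokine that draws T cells to skin, rose from 9.03, 8.71 and 8.31 to 11.34 and 11.48 (2.73 ± 0.20, adjusted p = 3.66e-05), and Cxcl14 was 4.48-fold higher (2.16 ± 0.16). Ccl20 was 2.55-fold higher and Cxcl16 1.64-fold. Ackr4, a scavenging receptor for chemokines that is not on this list, was 7.40-fold higher (2.89 ± 0.13). Il6 was under the background limit on all arrays.

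In the prostaglandin pathway the synthesis enzymes and one receptor moved apart. Ptgs2, the inducible cyclooxygenase and a TPA-induced sequence, had signals of 8.65, 8.18 and 8.85 in control and 6.87 and 7.54 in TPA (-1.36 ± 0.33, adjusted p = 0.0195). That call was lost without the first or the third control array or the first TPA array, with adjusted p up to 0.136. Ptges, a prostaglandin E synthase, was 2.27-fold lower (-1.18 ± 0.13). Ptger4, a receptor for prostaglandin E2, rose from 5.59, 5.57 and 5.37, under the limit, to 7.83 and 7.61, at least 2.31-fold. Hpgd, which breaks prostaglandins down, was at least 2.45-fold higher (adjusted p = 0.000288). Of 22 genes on the list 5 were higher and 6 lower, and 3 were lower without the first TPA array or the third control array, and 3 higher without the second TPA array.

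Some genes of arginine metabolism were lower along with Odc1. Arg1, arginase, which makes the ornithine that Odc1 uses, had signals of 10.13, 10.91 and 10.66 in control and 6.34 and 6.22 in TPA, a fall of at least 17.0-fold (adjusted p = 6.51e-06). Ass1, argininosuccinate synthase, fell from 10.91, 10.95 and 10.93 to 8.68 and 9.08 (-2.05 ± 0.12). Sat1, which starts polyamine breakdown, was 1.83-fold higher (0.87 ± 0.09). Of 14 genes 6 were lower and 3 higher. The count of higher genes was 1 without the first TPA array.

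Genes of stressed and wounded epidermis were lower in the TPA-labelled arrays. All 3 stress keratins measured, Krt6a, Krt6b and Krt16, were lower. Krt6b read 12.82, 12.82 and 12.77 in control but 6.47 and 11.27 in TPA, so the first TPA array alone lay near the background limit. The difference was -3.93 ± 1.06 (adjusted p = 0.0308). It was -1.53 without the first TPA array and -6.33 without the second, and the adjusted p rose to 0.0739 to 0.0813 when 1 control array was left out. Among 16 S100 and antimicrobial genes 9 were lower and 0 higher, with a median of -0.40. S100a8, an alarmin subunit, had signals of 10.05, 10.70 and 10.38 in control and 7.85 and 6.39 in TPA (-3.25 ± 0.36, adjusted p = 0.000343), and its partner S100a9 was 5.15-fold lower (-2.37 ± 0.40). Slpi, a protease inhibitor, fell from 9.99, 11.45 and 10.86 to 7.66 and 7.69.

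Of 10 small proline-rich genes, which encode cross-linked proteins of the cornified envelope, 8 were lower and 0 higher, with a median of -1.40. When signals under the background limit were set to it, the median was -0.57, and 2 of the 10 lay under the limit in both groups. Sprr2h had signals of 10.73, 11.02 and 10.97 in control and 6.48 and 6.79 in TPA, 19.3-fold lower (-4.27 ± 0.26, adjusted p = 1.6e-05). Sprr2d fell from 10.93, 11.59 and 11.27 to 5.93 and 7.16 (-4.72 ± 0.39). Sprr1b was 5.57-fold lower (-2.48 ± 0.15) and Sprr2a1, near the top of the range, 1.21-fold lower (-0.27 ± 0.08), a call lost in 7 of 8 fits without 1 array (adjusted p up to 0.17). The Sprr2 genes are near copies of each other, so probes for one may read another. Without the first TPA array 5 of the 10 passed.

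Suprabasal keratins ran the other way. Krt2, a keratin of the upper epidermal layers, had signals of 5.99, 6.50 and 7.35 in control and 12.62 and 12.54 in TPA. The control arrays lay at or near the background limit and the TPA arrays near the top of the range, 62.8-fold apart (5.97 ± 0.31, adjusted p = 7.22e-06). Krt10, which marks cells that have left the basal layer, had signals of 11.92, 10.96 and 10.90 in control and 12.73 and 12.71 in TPA (1.46 ± 0.26, adjusted p = 0.00445). Krt1, its partner, rose from 12.09, 10.49 and 11.28 to 12.84 and 12.54, a call lost without the third control array or either TPA array (adjusted p up to 0.136). Of 21 suprabasal and desmosomal genes 8 were higher and 1 lower. The lower gene was Dsc2, a desmosomal cadherin, which fell from 10.57, 10.90 and 10.81 to 6.67 and 6.80, 16.3-fold (-4.02 ± 0.16), while Dsg1a, another desmosomal cadherin, was 4.13-fold higher (2.04 ± 0.14).

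Among keratins of hair, tongue and follicle, Krt36 and Krt84 rose by far more than the rest of their list, whose median was -0.01. Krt36 had signals of 7.83, 7.58 and 6.94 in control and 12.34 and 12.20 in TPA, 28.3-fold apart (4.82 ± 0.23), and Krt84 rose from 7.06, 6.63 and 7.18 to 11.16 and 11.06 (4.15 ± 0.20). Of 19 hair, follicle and simple keratins 3 were higher and 1 lower, a share close to the 20.8% over all genes. The third higher one was Krt75 (at least 1.11-fold), whose call was lost without the second TPA array. The lower one was Krt18, a keratin of simple epithelia (at least 1.06-fold). Expanded arrays read 12.25 to 12.38 for Krt2 and 11.86 to 12.14 for Krt36. TPA minus expanded was 0.26 ± 0.31 for Krt2 (adjusted p = 0.754) and 0.31 ± 0.23 for Krt36 (adjusted p = 0.545), and neither passed.

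The late envelope genes did not follow the suprabasal keratins. Of 25 envelope and barrier lipid genes 2 were higher, 1 of them without the first or the second control array, and 6 lower. Ivl, involucrin, read 8.33, 8.58 and 8.67 in control and 7.83 and 8.27 in TPA (-0.48 ± 0.15, adjusted p = 0.0532), and Lor and Flg lay under the background limit on all arrays. Casp14, a protease of cornification, rose from 7.43, 7.47 and 7.70 to 9.78 and 9.85 (2.28 ± 0.32, adjusted p = 0.00124). Tgm1, the transglutaminase that cross-links the envelope, fell from 9.83, 10.54 and 9.95 to 7.91 and 8.10 (-2.11 ± 0.20). Cers3, a ceramide synthase of barrier lipids, was lower by 1.57 on the log2 scale.

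Matrix proteases and the plasminogen system held many of the deepest falls. Of 23 measured genes 11 were lower and 5 higher, with a median of -0.78. Mmp9, gelatinase B, had signals of 13.02, 13.09 and 12.85 in control and 7.62 and 7.16 in TPA. The groups stood 48.4-fold apart (-5.60 ± 0.52, adjusted p = 0.000133). Mmp10, stromelysin 2, fell from 11.19, 11.32 and 11.08 to 7.17 and 7.08, and Mmp13, a collagenase, from 11.39, 11.23 and 10.89 to 7.33 and 7.38. Mmp3, stromelysin 1, fell less, from 10.85, 10.70 and 10.63 to 9.64 and 9.55 (-1.14 ± 0.16). Plaur, the urokinase receptor, was 4.09-fold lower (-2.03 ± 0.13) and Plau, urokinase, 2.83-fold lower (-1.50 ± 0.14).

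Inhibitors of proteases divided. Timp1 fell from 10.34, 10.24 and 9.50 to 5.96 on both TPA arrays, at least 11.7-fold, while Timp3 rose from 7.84, 7.63 and 6.62 to 10.62 and 10.42, 8.93-fold (adjusted p = 0.000233). Serpinb7 was at least 5.58-fold higher and Serpinb2 2.42-fold higher. Mmp2, gelatinase A, was the protease that rose, 4.12-fold (2.04 ± 0.14). When signals under the background limit were set to it, the median of this list moved from -0.78 to -0.12.

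Promoters of 7 genes are shown because 5 of them, which fell, carry the TPA response element and the other 2, which rose, carry the related cAMP response element. The genes were chosen after their values were seen, and this pairing of element and direction did not hold throughout. The TPA response element was also in a promoter window of Serpinb7, Trim2 and Ccl27a, which rose. The cAMP response element was also in a window of Ldha and Mcm5, which fell. Sequences are RefSeq windows of GRCm38.p6, 250 bases before to 50 after the gene start, 5′ to 3′ on the strand of the gene, with the motif in capitals. Mmp13 (chr9:7272264-7272563), Mmp10 (chr9:7502092-7502391), Mmp3 (chr9:7445572-7445871), Plaur (chr7:24462233-24462532) and Sprr2h (chr3:92385435-92385734) lie on the plus strand. Btg2 (chr1:134079106-134079405) and Dusp1 (chr17:26508423-26508722) lie on the minus strand.
Mmp13: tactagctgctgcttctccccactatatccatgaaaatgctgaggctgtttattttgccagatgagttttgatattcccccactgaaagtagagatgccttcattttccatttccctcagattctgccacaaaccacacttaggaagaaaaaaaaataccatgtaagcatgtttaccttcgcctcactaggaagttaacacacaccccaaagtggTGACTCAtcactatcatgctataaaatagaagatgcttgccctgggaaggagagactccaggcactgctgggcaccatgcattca
Mmp10: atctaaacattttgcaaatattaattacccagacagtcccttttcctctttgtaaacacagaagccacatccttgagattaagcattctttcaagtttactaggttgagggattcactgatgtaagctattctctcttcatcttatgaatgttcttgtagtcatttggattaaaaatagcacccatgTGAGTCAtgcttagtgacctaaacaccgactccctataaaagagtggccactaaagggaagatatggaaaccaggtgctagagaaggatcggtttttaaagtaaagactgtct
Mmp3: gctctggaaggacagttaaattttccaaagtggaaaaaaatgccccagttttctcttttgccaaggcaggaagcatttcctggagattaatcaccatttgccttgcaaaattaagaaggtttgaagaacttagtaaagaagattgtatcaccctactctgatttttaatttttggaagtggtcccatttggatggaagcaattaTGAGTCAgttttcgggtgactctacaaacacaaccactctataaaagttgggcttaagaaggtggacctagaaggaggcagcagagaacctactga
Plaur: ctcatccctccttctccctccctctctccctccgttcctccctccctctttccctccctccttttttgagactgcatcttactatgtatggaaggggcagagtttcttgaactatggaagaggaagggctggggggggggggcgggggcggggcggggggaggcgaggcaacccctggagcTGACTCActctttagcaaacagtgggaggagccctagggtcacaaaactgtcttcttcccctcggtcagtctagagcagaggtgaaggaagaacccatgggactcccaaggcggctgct
Sprr2h: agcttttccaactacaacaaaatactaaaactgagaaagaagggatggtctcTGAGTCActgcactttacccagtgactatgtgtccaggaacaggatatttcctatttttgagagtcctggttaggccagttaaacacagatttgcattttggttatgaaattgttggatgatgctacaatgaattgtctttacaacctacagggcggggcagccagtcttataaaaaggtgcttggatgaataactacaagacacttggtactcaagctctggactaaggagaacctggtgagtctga
Btg2: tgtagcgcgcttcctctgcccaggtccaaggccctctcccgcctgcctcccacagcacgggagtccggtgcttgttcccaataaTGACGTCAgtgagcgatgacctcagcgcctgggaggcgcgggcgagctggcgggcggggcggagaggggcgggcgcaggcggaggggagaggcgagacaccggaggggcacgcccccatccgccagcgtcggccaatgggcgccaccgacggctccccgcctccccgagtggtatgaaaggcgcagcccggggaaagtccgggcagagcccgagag
Dusp1: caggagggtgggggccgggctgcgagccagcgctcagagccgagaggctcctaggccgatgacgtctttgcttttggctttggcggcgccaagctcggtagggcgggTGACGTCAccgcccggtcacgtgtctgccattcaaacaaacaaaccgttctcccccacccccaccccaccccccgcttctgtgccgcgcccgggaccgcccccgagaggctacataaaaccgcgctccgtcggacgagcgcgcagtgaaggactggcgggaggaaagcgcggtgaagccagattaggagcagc

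The TPA response element was searched as TGACTCA on both strands, so that its reverse reads TGAGTCA. It begins 35 bases before the start in Mmp13, 63 in Mmp10, 46 in Mmp3, 69 in Plaur and 198 in Sprr2h. The cAMP response element, searched as TGACGTCA, begins 166 bases before the start in Btg2 and 143 in Dusp1. Of 13605 genes with at least 1 promoter window in the table, 5.4% held the TPA response element. The share was 20% (17 of 85) among genes lower by 4-fold or more and 10.5% (4 of 38) among those higher by 4-fold or more. At 2-fold or more it was 9.1% among lower and 9.2% among higher genes, and over all called genes 6.4% and 5.0%.

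The 17 genes with the element and a large fall were Ak1, Cald1, Car9, Fblim1, Gpr35, Mmp10, Mmp13, Mmp1b, Morrbid, Neu2, Plaur, Procr, Sprr2d, Sprr2f, Sprr2h, Sult2b1 and Tmigd1. The class rests on fitted differences: for Mmp1b and Sprr2f, under the background limit in TPA, the fall was at least 1.76-fold and at least 1.23-fold. Of the 17, 3 are neighbouring Mmp genes of chromosome 9 and 3 are neighbouring Sprr2 genes of chromosome 3, so these should not be counted as independent. Whether their promoters share sequence was not tested. The TATA box, searched as TATAAA, was in 11.8% of all genes, 24.7% of those lower and 26.3% of those higher by 4-fold or more. The cAMP response element was in 2.9%, 2.4% and 0.0% of the same classes. These shares describe letters in a window, chosen after the values were seen, and carry no test.

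**Figure D3:**
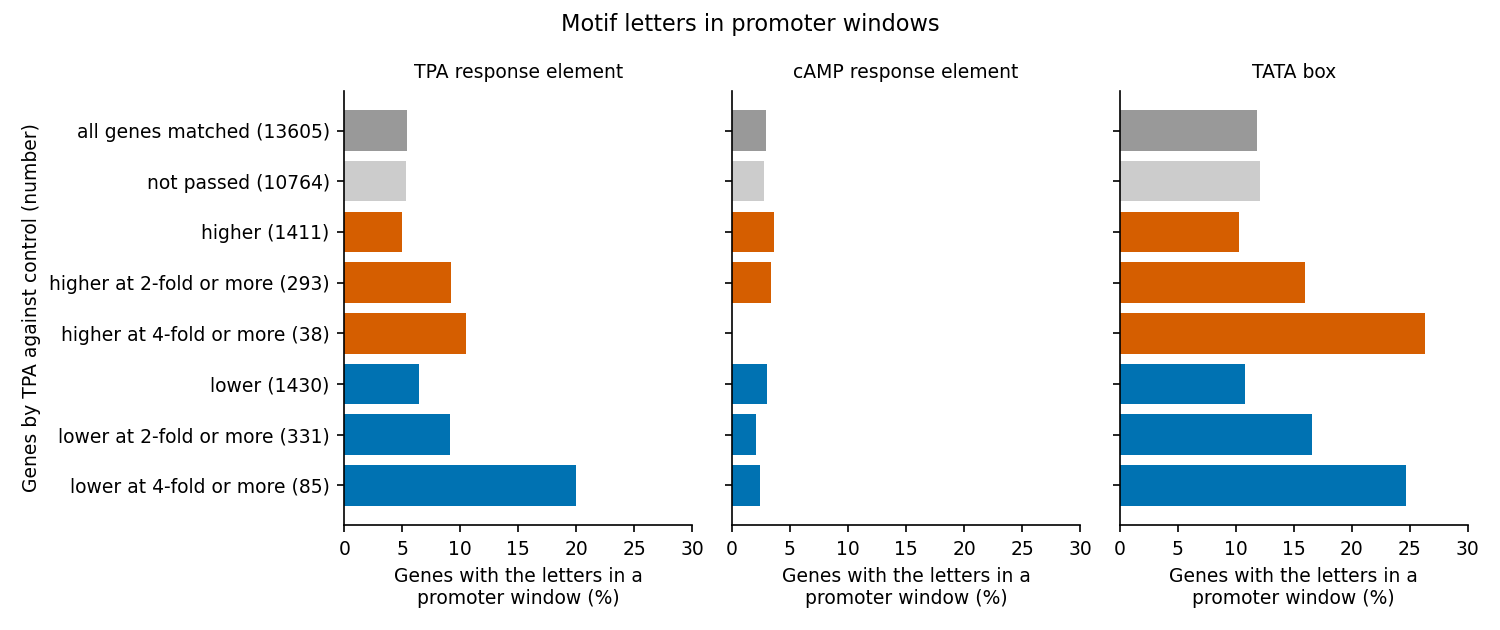
Bars give the percentage of genes with the motif letters in a promoter window, by class of difference between TPA-labelled and control-labelled arrays, with the number of genes in each class beside it. The TPA response element is in 20% of the 85 genes lower by 4-fold or more against 5.4% of all 13605 genes, while the TATA box is at 24.7% and 26.3% in the large falls and rises.

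Growth factor genes of the TGF-beta family differed in both directions. Inhba, the activin A subunit, which is induced in wounds, had signals of 11.85, 11.85 and 11.42 in control and 6.46 and 6.63 in TPA, 35.9-fold apart (-5.17 ± 0.23, adjusted p = 3.26e-06). Bmp2 rose from 7.49, 7.77 and 7.50 to 10.34 and 10.33 (2.75 ± 0.14, adjusted p = 5.6e-06) and Bmp7 by 1.91-fold (0.93 ± 0.08). Id3, a target of BMP signalling, was 2.86-fold higher (1.51 ± 0.11), while Id1 differed by -0.03. Tgfb1 and its receptor gene Tgfbr2 were lower, by 1.26 and 0.64 on the log2 scale. Of 26 genes 5 were higher and 4 lower. Among Wnt genes, Wnt3 was 2.89-fold higher (1.53 ± 0.12) and Wnt5a, a ligand of noncanonical signalling, fell from 8.68, 9.03 and 8.85 to 6.31 and 5.66, at least 5.18-fold. Of 19 Wnt genes 4 were higher, 2 of them without the first TPA array, and 2 were lower. Notch1, a receptor that promotes keratinocyte differentiation, was 1.76-fold higher (0.81 ± 0.08) and its ligand gene Jag1 1.62-fold lower (-0.69 ± 0.07).

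Genes that anchor and move cells were lower. Of 19 genes of the actin cytoskeleton that the transcription factor SRF controls, 14 were lower and 2 higher, with a median of -0.93, and 1 was higher without either TPA array. Actn1, alpha-actinin, had signals of 12.12, 12.11 and 12.05 in control and 10.07 and 10.02 in TPA (-2.05 ± 0.08, adjusted p = 2e-06). Cald1, caldesmon, was 15.6-fold lower (-3.97 ± 0.29) and Acta2, smooth muscle actin, 3.84-fold lower (-1.94 ± 0.12). Srf itself was 1.28-fold higher (0.35 ± 0.08), a call lost without the second TPA array, where the difference was 0.32. It was also lost when the gene's probe sets were averaged or the replicate number was a block (adjusted p up to 0.435). Actb, cytoplasmic actin, differed by -0.04.

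Among 15 integrin and focal adhesion genes 10 were lower and 1 higher, with a median of -0.45. Itgb1, the beta-1 integrin shared by many receptors, fell from 12.54, 12.61 and 12.48 to 11.22 and 11.36 (-1.25 ± 0.08), and Itga5, of the fibronectin receptor, fell at least 6.20-fold (adjusted p = 0.000102). The higher gene was Itgb5 (0.57 ± 0.08). Without the second TPA array 6 were lower. Of 15 laminin and hemidesmosome genes 7 were lower and 2 higher, with 1 higher without any 1 control array, either TPA array or the third expanded array. Lama3 and Lamb3, chains of the main epidermal laminin, were lower by 1.30 ± 0.09 and 1.25 ± 0.08, and Dst, the hemidesmosome plakin, was higher by 0.86 ± 0.08.

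Connexin genes gave another large change among 15 junction genes, of which 6 were lower and 2 higher. Gjb2, connexin 26, had signals of 12.66, 12.64 and 12.55 in control and 9.67 and 9.27 in TPA (-3.15 ± 0.12, adjusted p = 2e-06), and Gjb6, connexin 30, fell from 9.84, 10.24 and 9.82 to 6.98 and 6.43. Gja1, the main connexin of the basal layer, was 1.25-fold lower, a call lost without either TPA array (adjusted p of 0.0519 and 0.0658). Cldn1, a tight junction claudin, was higher by 1.06 ± 0.17, Ocln, occludin, at least 2.12-fold higher, and Cdh1, E-cadherin, differed by 0.15.

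Glycolysis and hypoxia-linked genes fell together: 18 of 21 were lower and 0 higher, with a median of -0.55. Most falls were small. Slc2a1, the glucose transporter, had signals of 12.88, 12.94 and 12.83 in control and 12.16 and 12.29 in TPA (-0.66 ± 0.08), and Pgk1 and Ldha were lower by 0.55 ± 0.07 and 0.47 ± 0.07. The larger ones were Car9, carbonic anhydrase 9, which fell from 9.29, 9.29 and 9.09 to 6.36 and 6.42, at least 6.72-fold, and Slc16a3, the lactate exporter, 6.37-fold lower (-2.67 ± 0.16). Bnip3, a mitophagy gene induced by hypoxia, fell 3.93-fold (-1.97 ± 0.12). The respiratory chain did not follow, with 1 of 27 higher, 2 lower and a median of 0.00, and 1 lower without either TPA array.

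Genes of the endoplasmic reticulum stress response were lower in 14 of 20 cases and higher in 2, with a median of -0.73. Trib3, a pseudokinase induced by ATF4, fell from 9.43, 9.46 and 9.17 to 6.80 and 6.72 (-2.59 ± 0.10, adjusted p = 2e-06). The chaperone partners Manf, Creld2 and Pdia4 were lower by 0.97 ± 0.09, 0.92 ± 0.09 and 0.73 ± 0.09, and Atf4 and Ddit3 differed by 0.00 and 0.18. Of 18 genes linked to the oxidative stress factor NRF2, 5 were lower and 2 higher. Hmox1, heme oxygenase, had signals of 9.90, 10.04 and 10.18 in control and 7.21 and 6.66 in TPA (-3.10 ± 0.16, adjusted p = 6.47e-06), and Gsta4 was 4.45-fold lower (-2.15 ± 0.09). Heat shock genes were higher in 3 of 12 cases, among them Hspa1b (0.98 ± 0.08) and Hspb8 (1.23 ± 0.10), and lower in 1, with a median of 0.03.

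Cell cycle genes were modestly lower. Of 22 mitotic genes 12 were lower and 1 higher, with a median of -0.48, and of 25 DNA replication genes 8 were lower and 0 higher, with a median of -0.22. Rrm2, a ribonucleotide reductase subunit, had signals of 11.45, 11.34 and 11.49 in control and 10.13 and 10.17 in TPA (-1.28 ± 0.08, adjusted p = 1.92e-05). Aurka, a mitotic kinase, was 1.60-fold lower (-0.67 ± 0.09) and Cenpa, the centromeric histone, 1.74-fold (-0.80 ± 0.13). Mki67, the proliferation marker, read 10.55, 10.34 and 10.43 in control and 10.33 and 10.32 in TPA (-0.11 ± 0.09, adjusted p = 0.458), and Top2a and Ccnd1 did not pass. The mitotic count of lower genes was 7 without either TPA array, and that of higher genes 0 without the second or the third control array or the first TPA array. The replication count was 4 without the first TPA array and 5 without the first or the third control array. Cdkn1a, the p21 inhibitor, was 1.32-fold lower (-0.41 ± 0.07), and Trp53inp1, a p53 target, 3.83-fold higher (1.94 ± 0.19).

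Clock genes were higher: 9 of 17 passed, with none lower and a median of 0.51. Arntl, which encodes the clock factor BMAL1, had signals of 8.24, 8.28 and 8.11 in control and 9.45 and 9.61 in TPA (1.32 ± 0.13, adjusted p = 0.000224). Rora, a nuclear receptor that activates it, rose from 10.27, 10.14 and 10.18 to 11.76 and 11.76, and Per1 and Nr1d2 rose by 0.94 ± 0.09 and 0.96 ± 0.11. Per2 differed by 0.04 and Dbp by 0.15, and neither passed. Arntl is one where the expanded arrays stayed with control, at 7.85 to 8.32, and TPA differed from them by 1.46 ± 0.13 (adjusted p = 0.000929). The time of day at which skin was taken is not given in the sources used here.

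Several further lists had few members called or calls in both directions. Over all genes 10.2% were higher and 10.6% lower, and some of the counts below lie near these shares. In ribosome biogenesis the share called was under the 20.8% over all genes. Of 14 NF-kappaB genes 3 were higher, among them Rel, a subunit (1.26 ± 0.11), and Icam1, an adhesion target (0.83 ± 0.10), and 2 were lower, but 0 were lower without the second control array or the first TPA array and 1 without the first control, the third expanded or the second TPA array. Of 16 YAP and TAZ genes 4 were higher, among them Ptpn14 (2.13 ± 0.15), and 5 lower, among them Tead4, a DNA-binding partner of YAP (-1.95 ± 0.23), with 3 lower when the first or second control, the second or the third expanded or the second TPA array was left out. Of 14 infundibulum genes 3 were higher, among them Postn, periostin (1.90 ± 0.19), and Sostdc1 (1.27 ± 0.13), and 2 lower, 1 of them without the second TPA array. Of 24 matrix genes 5 were higher and 4 lower. Cholesterol and fatty acid synthesis had 6 of 21 lower, led by Sqle, squalene epoxidase (-1.69 ± 0.13), and 0 higher. Interferon and antigen processing genes had 4 of 21 higher, led by Parp10 (2.55 ± 0.19), and 2 lower. The lower count was 0 without the first TPA array and 1 without any 1 control array, the second or the third expanded array or the second TPA array. Ribosome biogenesis had 2 of 21 higher and 0 lower, 1 lower without the second TPA array. Notch genes had 3 of 13 higher and 3 lower, and p53 targets and inhibitors of cyclin-dependent kinases 5 of 20 higher and 4 lower.

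**Figure D4:**
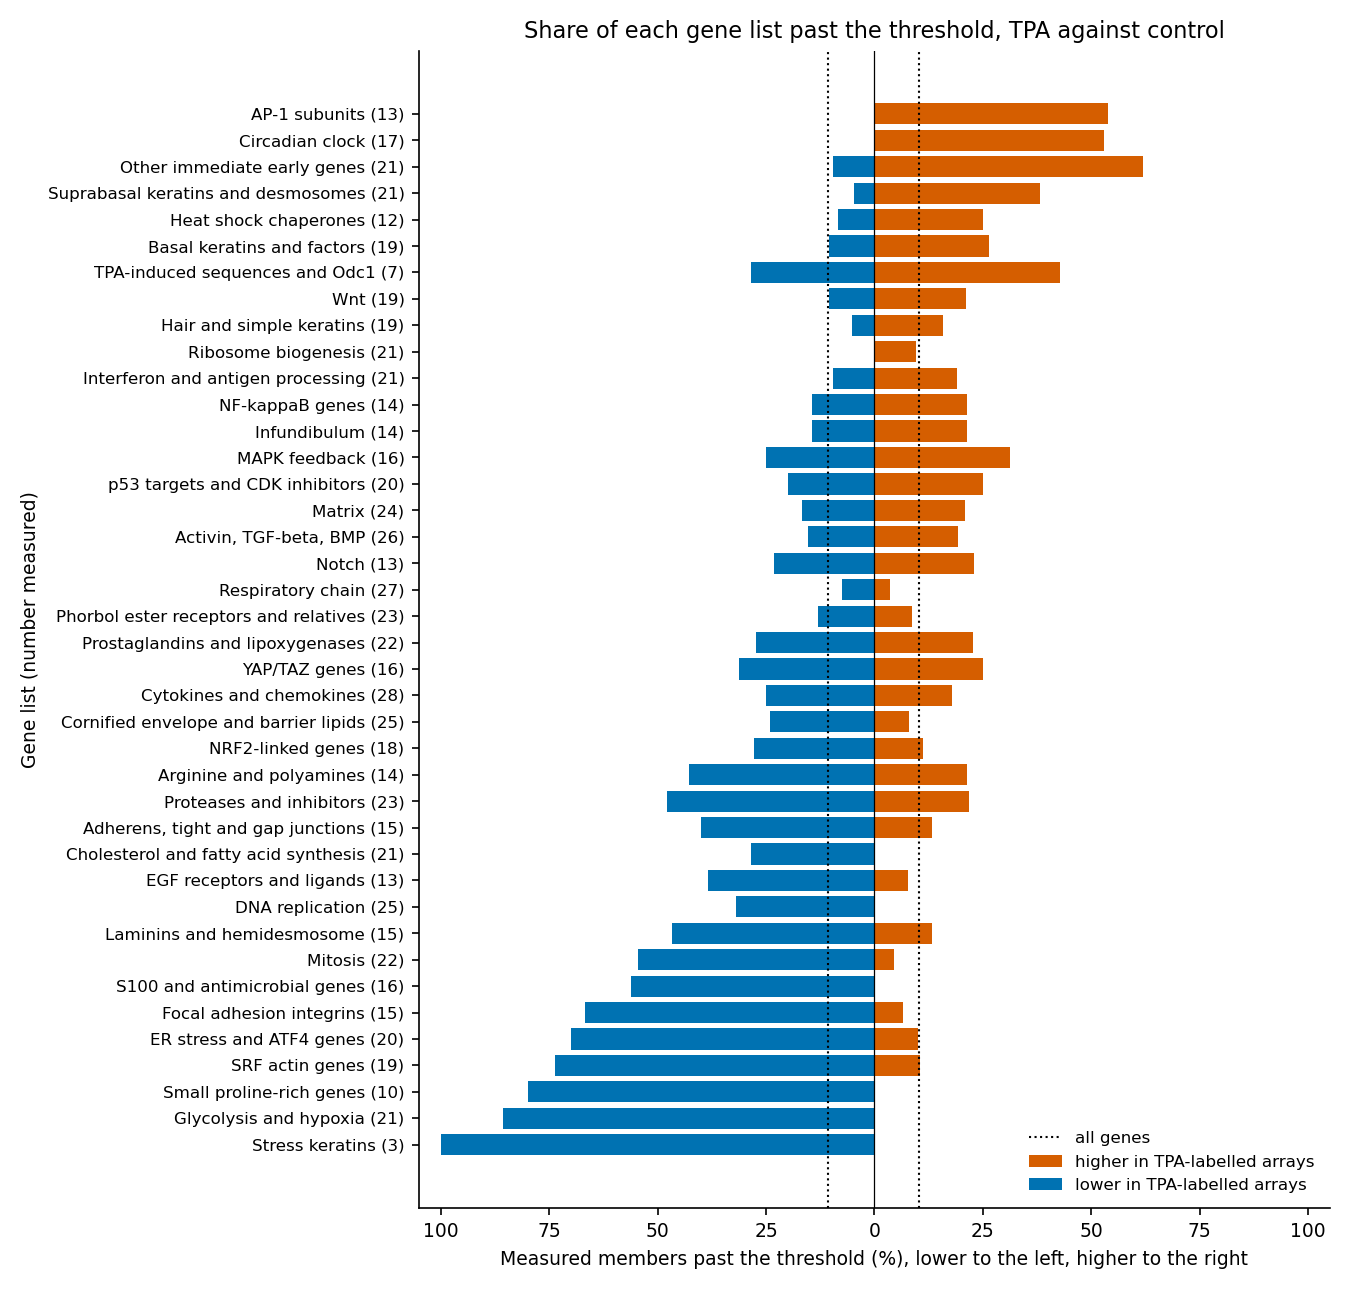
Bars give, for each gene list, the percentage of its measured members higher (orange, to the right) or lower (blue, to the left) in TPA-labelled than in control-labelled arrays, with the number measured in brackets. Dotted lines mark the shares over all genes, 10.2% higher and 10.6% lower, which lists such as glycolysis (18 of 21 lower) and AP-1 (7 of 13 higher) exceed.

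Other genes among the largest differences came from several functions. Fcgbp, a mucin-like protein that binds IgG, rose from 8.37, 8.74 and 8.65 to 12.37 and 12.38, 13.8-fold (3.79 ± 0.14, adjusted p = 2e-06). Gpha2, a glycoprotein hormone subunit, was 11.6-fold higher (3.54 ± 0.25), Efemp1, fibulin-3, a member of the matrix list, at least 6.14-fold and Spock2, a matrix proteoglycan, 9.07-fold (3.18 ± 0.08). Mt4, an epithelial metallothionein on the NRF2 list, rose from 9.03, 7.98 and 7.27 to 11.64 and 11.61. Ly6g6c lay at 6.80, 9.92 and 7.86 in control and 11.21 and 11.13 in TPA, and its call was lost without the first or the third control array or either TPA array (adjusted p up to 0.1).

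On the lower side, Cpn1, a carboxypeptidase that trims peptides, fell from 11.52, 11.44 and 11.28 to 7.32 and 7.31, and had the lowest adjusted p of the genes named here (-4.10 ± 0.09, adjusted p = 2.47e-07). Procr, the protein C receptor, was 18.3-fold lower (-4.19 ± 0.13). Sh2d5, an SH2 domain protein, was at least 26.9-fold lower, Uox, urate oxidase, at least 17.7-fold, Tubb3, a beta-tubulin best known in neurons, at least 13.96-fold, and Neu2, a sialidase, at least 9.51-fold. Klk10, a kallikrein protease on the infundibulum list, fell from 10.79, 10.77 and 10.67 to 6.80 and 7.37 (-3.66 ± 0.17).

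The expanded arrays lay between control and TPA for most called genes, a comparison that shares the control arrays. Their mean lay between for 1478 of 1744 higher genes and 1553 of 1815 lower genes. Called genes were picked for a gap between control and TPA, which makes a mean in between likelier. The share over all genes was not computed. TPA and expanded arrays, compared without the controls, differed in 1022 genes (5.98%). Of the genes called between TPA and control, 892 also differed from expanded in the same direction, 415 higher and 477 lower. Both comparisons use the same 2 TPA arrays, so part of this shared direction is built in. Among these were Nr4a1, higher than expanded by 1.77 ± 0.21 (adjusted p = 0.00295), Bmp2 by 1.94 ± 0.14 (adjusted p = 0.000262) and Gjb2, with a difference of -2.69 ± 0.12 (adjusted p = 2.59e-05). Mmp9, Arg1 and Krt2 did not differ from expanded past the threshold. In 9 genes the TPA arrays lay between control and expanded and differed from both: Mmp3 was lower than control yet higher than expanded, at 9.10, 8.71 and 8.51 in expanded (0.82 ± 0.16, adjusted p = 0.0202). The others were Ehd1, Igfbp3, Prss23, Pxdc1, Serpina3n, Serpinb3a, Slc35g1 and Tnfrsf12a. Against control, Igfbp3 lost its call without the first or the second control array, any expanded array or either TPA array. Its adjusted p was 0.123 without the second control array. Prss23 lost its call without the first or the third control array or either TPA array, and Pxdc1 without the first or the second control array or either TPA array. Tnfrsf12a lost its call without the first TPA array. Median centring also removed the calls of Igfbp3, Prss23 and Pxdc1.

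Markers of other cell types differed between arrays more than between groups in several cases. Summed linear signals of 10 endothelial markers were 958 to 2350 in control and 865 to 939 in TPA, and the high value came from the first control array, where Cdh5 read 9.73 against 7.02 and 6.86 on the others. None of the 10 was called, and 1 was lower without the second control array. Sums of 9 macrophage and neutrophil markers, 2 of them lower, were 543 to 1080 in control and 494 to 497 in TPA. Without the second control array 4 were lower. Itgam and Adgre1 lay under the background limit, and Lyz2 read 8.25, 5.36 and 7.12 in control. Fibroblast markers summed to 1000 to 2240 in control and 991 to 1090 in TPA, with Col1a2 and Pdgfra under the limit. Dcn alone was called (1.69 ± 0.23), and 1 marker was lower without the first expanded array. Langerhans cell markers summed to 1880 to 2660 and 1620 to 1730, with Cd207 under the limit and H2-Ab1 alone lower, from 7.88, 8.02 and 9.55 to 5.89 and 6.16. Their part in the results was not tested.

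Markers of T cells summed to 779 to 954 in control and 1480 to 1620 in TPA, a rise carried by Thy1 (1.33 ± 0.14), with Cd3e, Cd3g and Ptprc under the limit. Melanocyte markers summed to 549 to 983 and 720 to 764, with Dct and Tyr under the limit. Merkel cell markers summed to 551 to 573 and 507 to 536, with Krt20 and Atoh1 under it. Bulge markers summed to 2560 to 3010 and 4500 to 4640, mostly Krt15, with Cd34 and Lgr5 under it. Sebaceous markers summed to 5300 to 6990 in control but 3650 and 9100 on the TPA arrays, where the groups overlapped.

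Over all genes the TPA arrays differed from each other by a median of 0.13 and the control arrays ranged by a median of 0.20, but single genes spread far. Of 9533 genes that read above the median signal of all genes on at least 1 array, in 89 the TPA arrays differed by 2-fold or more, and in 102 the control arrays did. The first TPA array read higher than the second for lipid genes of sebaceous glands, chosen here after their values were seen: Lpl 9.65 and 6.43, Fa2h 8.96 and 5.24, Elovl6 11.22 and 9.41, and Plin2 10.81 and 8.98. Among controls, Fn1, fibronectin, read 11.42, 8.16 and 9.17 and Cdsn, corneodesmosin, 6.95, 9.22 and 10.01. Cdsn did not pass (adjusted p = 0.054) despite a mean difference of -2.28. Fn1 passed (-3.35 ± 0.86, adjusted p = 0.0245), a call lost without the third control array or either TPA array (adjusted p up to 0.111). Plin2 passed too, at -1.53 ± 0.43, a call lost without any 1 control array, the first or the third expanded array or the second TPA array (adjusted p up to 0.0999). Its difference was -2.44 without the first TPA array and -0.62 without the second.

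**Figure D5:**
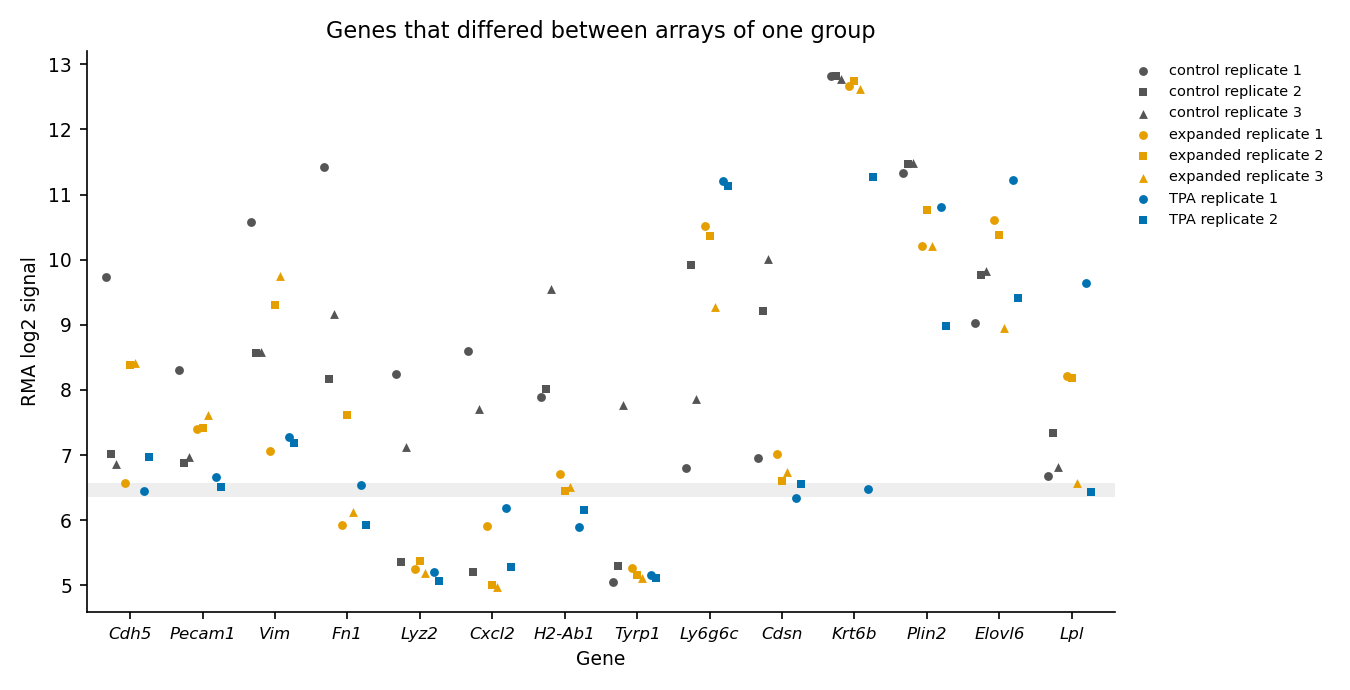
Each point is the RMA log2 signal of 1 array for genes that varied between arrays of a group, with colour for the group and shape for the replicate number, and the pale band at the background limit. The first control array stands apart for Cdh5, Pecam1, Vim and Fn1, the third for H2-Ab1 and Tyrp1, and the TPA arrays lie far apart for Krt6b, Plin2, Elovl6 and Lpl.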

How the data were processed

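Basal cells of 8 mice were measured on 1 Affymetrix array each. The deposited values are log2 signals per probe set, made by the authors with RMA, per the submitters' processing notes; version and settings are not given in the sources used here. Of 45141 probe sets, 28898 carried 1 gene symbol in the platform annotation of 2016, 551 several and 15588 none, and 104 were controls. Each of 17097 genes was represented by its probe set with the highest mean over the 8 arrays, and probe sets without exactly 1 symbol and controls were left out. No counts stand behind the signals, so the number of arrays limits the precision.

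A linear model per gene with moderated variance (limma 3.58.1, functions lmFit and eBayes, R 4.3.3) took in all 8 arrays with 1 coefficient per group, and p-values were adjusted by Benjamini-Hochberg over all genes, with a threshold of 0.05. On simulated data for this comparison, over 17097 genes, the fit recovered 62% of 50 genes changed 1.5-fold and 94% of those changed 2-fold. It made 6 false calls. The simulated noise was normal, without outlying arrays, and far fewer genes changed than were called here, so recovery in these data may differ. Arrays of different groups with the same replicate number did not deviate together (r of 0.03 and -0.02 between control and TPA), so they were not paired.

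The members and lists were chosen with earlier results of these data known. Named genes are the 20 largest rises and 20 largest falls, up to 6 members per list with the smallest p, key members marked in the lists and all members of lists of at most 10 genes. Other names (members that did not pass, genes that varied within a group, promoter genes and those opposed to expansion) were chosen after their values were seen. Alternatives covered normalization, filters, probe sets, eBayes settings, array weights, the arrays fitted, a replicate block, a minimum fold and each array left out.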

Additional observations from a re-analysis of the deposited data

How the results depend on the processing

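The comparison was repeated under 19 alternatives. Testing each probe set by itself gave 5816 calls, 2965 higher and 2851 lower, with 1278 at 2-fold or more, since it tests more features. Testing against a fold of 1.5 (limma's treat) gave 596 calls, 270 higher and 326 lower. Leaving out 1 array gave 2613 to 3344 calls, 1297 to 1650 higher, 1316 to 1696 lower and 780 to 867 at 2-fold or more, with the fewest calls without the first TPA array. Median centring moved the balance, to 1919 higher and 1602 lower of 3521, and quantile normalization gave 1936 and 1713. Of 278 called genes among the 390 recomputed, 138 kept call and direction in every alternative, 87 lost the call only against the fold of 1.5 with no reversal, and 52 lost it when 1 array was left out. The direction reversed in 2 genes when a gene's probe sets were averaged: Hspa4, a chaperone, became 0.06 and Sc5d, a sterol enzyme, 0.32, neither past the threshold. In 37 genes single probe sets were called in both directions. Of all genes 32.9% lay under the background limit on every array, where a difference could not be measured.

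With the replicate number as a block, 2829 genes passed, 1375 higher and 1454 lower, with 787 at 2-fold or more. The samples share only a number, so this is no pairing of mice.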
